A study of Mus musculus with 4 samples.

Results

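The olfactory sensory neurons that transcribe the odorant receptor gene Olfr1507 are described here from 4 single-cell RNA libraries of the mouse main olfactory epithelium. A barcode was taken as an Olfr1507 neuron when it had at least 500 detected genes, at most 10% mitochondrial UMIs, at least 5 UMIs of Omp and at most 15 UMIs of Cyp2g1, and when Olfr1507 was its leading receptor with at least 3 UMIs and at least 80% of all receptor UMIs. A UMI (unique molecular identifier) stands for 1 captured RNA molecule. This rule found 247 Olfr1507 neurons among 41911 barcodes, with 71 and 58 in the female libraries and 62 and 56 in the male ones. The same rule gave 17644 neurons to receptors other than Olfr1507, and 960 receptors had neurons, Olfr1507 included. Olfr1507 had the second largest number of neurons of any receptor, between Olfr536 with 320 and Olfr1348 with 218. All libraries came from wild-type C57BL/6J mice aged 3 months, 2 libraries from females and 2 from males, with no other treatment or allele named. The tissue was dissociated with papain and no cell type was sorted. The labels number the libraries within each sex but do not say that each came from 1 animal, so the p-values measure the spread between these libraries, which may in part be technical.

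Each mature olfactory sensory neuron transcribes mainly 1 odorant receptor gene from a very large gene family, and neurons of the same receptor send their axons to the same few glomeruli of the olfactory bulb. Olfr1507, also known as MOR28, is a long-studied receptor of the ventral part of the epithelium, and its transcription depends on the H element, an enhancer that lies beside its gene cluster. The receptor that a neuron has chosen also sets the level of other genes, among them guidance molecules such as Nrp1 and Plxna1, and adhesion molecules such as Kirrel2 and Kirrel3, whose transcription follows the electrical activity of the neuron.

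Olfr1507 lies on chromosome 14 at 52488791 to 52495749 on the minus strand of GRCm38 in the GENCODE M21 annotation. Its nearest relative, Olfr1508, lies at 52458829 to 52467495 on the same strand, and Olfr1509 lies at 52442990 to 52452574 on the plus strand. The coding sequences measure 942, 933 and 927 bases. That of Olfr1508 was 92.3% identical to that of Olfr1507, with 869 identical bases, while that of Olfr1509 was 66.7% identical. The opening 60 coding bases of all 3 genes are given because they show how close the receptors are on which the assignment of neurons rests, and the capital marks the base of Olfr1508 that differs from Olfr1507. In order, they are chr14:52490903-52490962 (minus strand), chr14:52463948-52464007 (minus strand) and chr14:52450415-52450474 (plus strand).
Olfr1507: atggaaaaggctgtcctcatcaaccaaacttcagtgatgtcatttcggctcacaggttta
Olfr1508: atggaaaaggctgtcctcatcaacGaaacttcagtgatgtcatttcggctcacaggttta
Olfr1509: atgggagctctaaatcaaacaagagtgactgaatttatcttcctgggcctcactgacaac

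The stretch of 60 bases in which Olfr1507 and Olfr1508 differ most, coding bases 425 to 484, held 12 differences, marked by capitals in both sequences. The stretches are chr14:52490479-52490538 for Olfr1507 and chr14:52463524-52463583 for Olfr1508, both on the minus strand. How reads that match both genes were counted is not given in the sources used here.
Olfr1507: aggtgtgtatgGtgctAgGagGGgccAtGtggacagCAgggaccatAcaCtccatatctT
Olfr1508: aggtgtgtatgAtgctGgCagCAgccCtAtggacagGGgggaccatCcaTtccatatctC

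Olfr1507 was transcribed at a high level in the neurons assigned to it. The median Olfr1507 neuron held 142 and 141.5 UMIs of its receptor in females 1 and 2 and 146 and 128.5 in males 1 and 2, with a range from 3 to 316 over the 247 neurons. The leading receptor of neurons assigned to other receptors had library medians of 56 to 67 UMIs. As counts per 1000000 UMIs (CPM), Olfr1507 stood at 13579, 13715, 14891 and 13371 in the same order of libraries. The libraries were close to each other, and since the rule selected on these values they are a description. In the other-receptor neurons 3.29% had an Olfr1507 UMI, at a median depth of 8163 UMIs. In the barcodes with sustentacular RNA, which come from supporting cells and should lack receptor transcripts, the share was 4.73% at a median depth of 13592 UMIs. As CPM of Olfr1507 the other-receptor neurons were at 3.87 to 5.47 in the 4 libraries and the sustentacular-like barcodes at 3.82 to 8.64, so the ranges overlapped.

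**Figure D1:**
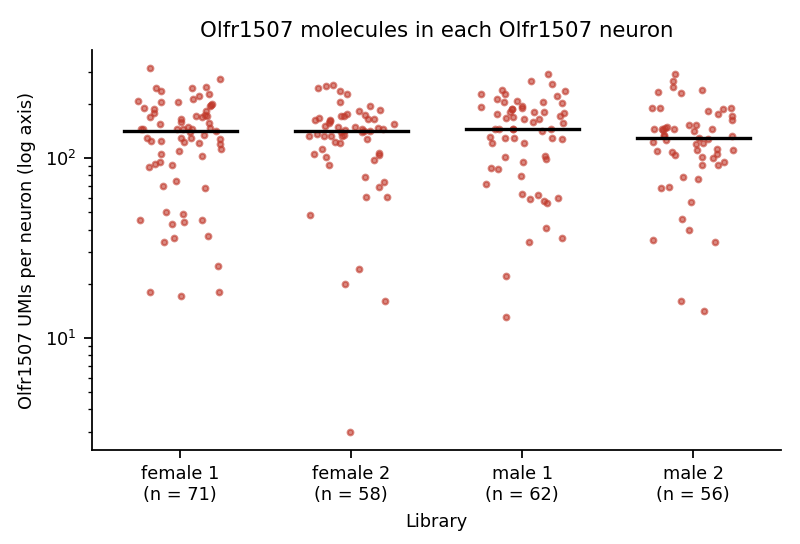
Olfr1507 UMIs in each Olfr1507 neuron (points, log axis) of the 4 libraries, with the library median as a line. The medians lie between 128.5 and 146 UMIs, and 1 neuron of female 2 lies at 3 UMIs.

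The limits of the rule touched few neurons. Olfr1507 was the leading receptor in 41 further barcodes, of which 16 had fewer than 3 UMIs of it and 25 fell under 80%. The member nearest to the limit had 80.5% (103 of 128 receptor UMIs), and the nearest barcodes outside had 79.1% (239 of 302), 77.2% (233 of 302) and 73.7% (137 of 186). Among those left out, 13 had 100 or more Olfr1507 UMIs together with 37 to 132 UMIs of a second receptor. The second receptor was a different one in each of the 13.

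A second receptor gene had at least 1 UMI in 173 of the 247 Olfr1507 neurons (70.0%), against 76.0% of the other-receptor neurons. These UMIs made up 1.26% of the receptor UMIs in Olfr1507 neurons and 2.37% in the others, and the rule limits both shares. The neighbours of Olfr1507 within 200 kb on the same chromosome were almost undetected in its neurons. Olfr1509, Olfr1510, Olfr1511, Olfr1512 and Olfr1513 had no UMI in any of 247 neurons, which allows a share of up to 1.48% (exact Clopper-Pearson 95% limit). Olfr1508 had a UMI in 2 of 247 neurons (0.81%, exact 95% interval 0.0982% to 2.89%), against 0.626% of the other-receptor neurons and 0.852% of the sustentacular-like barcodes. Both shares lay within this interval, and the 2 neurons with Olfr1508 came from male 2. The rule limits such UMIs, and how reads that match both genes were counted is not known. The count therefore does not tell how well the 2 genes were told apart. Intervals cover counting error only.

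The share of Olfr1507 among all assigned neurons was 1.57% and 1.34% in the female libraries and 1.40% and 1.22% in the male libraries. The sexes overlapped: the female mean was 1.45% ± 0.158 (SD, n = 2) and the male mean 1.31% ± 0.127 (SD, n = 2). The difference of -0.148 percentage points had a two-sided exact permutation p of 0.667, where 2 libraries against 2 cannot go below 0.333. With 1 library left out it lay between -0.260 and -0.0365 percentage points.

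The libraries held between 100725429 and 111577458 UMIs. No barcode sequence was shared between libraries among the Olfr1507 neurons, while 136 to 172 barcodes were shared by each pair of whole libraries. Library medians of depth were 9574 to 10266 UMIs in Olfr1507 neurons and 7749 to 8567 in the others. Markers of mature neurons, summed over 8 genes, were at 35522 to 38798 CPM in Olfr1507 neurons and 28175 to 29785 in the others. RNA of sustentacular cells was also present. Its 6 markers, of which Cyp2g1 was limited by the rule, summed to 992 to 2719 CPM in Olfr1507 neurons against 576 to 746 in the others. More than 10 UMIs of the 5 other sustentacular markers occurred in 12 of 247 Olfr1507 neurons (4.86%) and in 482 of 17644 others (2.73%). All 3 B lineage markers were at 0 in Olfr1507 neurons. Neutrophil markers stood at 585 CPM in male 1 and at 1.73 to 7.28 CPM in the other libraries. Erythrocyte markers had a median of 14.6 CPM against 187 CPM in the other-receptor neurons.

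The comparison with neurons of all other receptors asked which genes besides the receptors vary with the choice of Olfr1507. UMIs were summed per library and group without the receptor genes, and the 4 sums of Olfr1507 neurons were set against 4 sums of other-receptor neurons from the same libraries. Of 10094 genes tested, 1962 (19.4%) passed 0.05 after Benjamini-Hochberg adjustment of the quasi-likelihood test in edgeR. In Olfr1507 neurons 1167 genes (11.6%) were higher and 795 (7.88%) lower. Without TMM scaling the counts were 963 higher and 1039 lower. The median log2 fold change of all genes tested was 0.01. The counts given below for a gene list should be read beside these shares, since many genes passed. Levels in the following text are CPM over the UMIs of non-receptor genes, and values of 4 libraries come in the order female 1, female 2, male 1 and male 2. Gene lists were chosen with earlier results of these data known.

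Genes whose transcription follows neuronal activity differed widely in Olfr1507 neurons, in both directions. Of 15 activity-linked genes tested, 6 rose and 7 fell, and the list's median log2 fold change was -0.15. Calb2, the calcium-binding protein calretinin, was at 3626, 3538, 3657 and 3504 CPM in Olfr1507 neurons and at 476, 448, 403 and 398 CPM in other-receptor neurons. Every Olfr1507 value lay far above every other value, and the log2 fold change was 3.11 (SE 0.05, adjusted p = 1.05e-18). S100a5, a calcium-binding protein of active olfactory neurons, went the opposite way, with 443, 209, 947 and 255 CPM against 12064, 11355, 17656 and 13410. Here the groups did not overlap either, and male 1 was the highest library of both groups. The log2 fold change of S100a5 was -4.97 (SE 0.17, adjusted p = 4.54e-14). Of its UMIs in Olfr1507 neurons, 43.2% came from only 5 neurons.

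Pcp4l1, a small protein of the calmodulin-binding PCP4 family, was at 102, 59.8, 141 and 66.4 CPM in Olfr1507 neurons and at 2366, 2509, 2871 and 2658 CPM in the others. Its log2 fold change was -4.76 (SE 0.11, adjusted p = 3.71e-16), and male 1 was again the highest of the Olfr1507 sums. The adhesion molecules Kirrel2 and Kirrel3, which bind their own kind on other axons and sort axons into glomeruli, moved in opposite directions. Kirrel2 was at 294, 236, 264 and 212 CPM against 1185, 1066, 1107 and 878, a log2 fold change of -2.02 (SE 0.06, adjusted p = 4.46e-15). Kirrel3 was at 373, 411, 361 and 354 CPM against 94.2, 93.2, 85.8 and 92.9, a log2 fold change of 2.09 (SE 0.07, adjusted p = 2.75e-14). For both genes the 2 groups were apart in all 4 libraries. Lrrc3b, a leucine-rich repeat membrane protein, fell by 3.16 on the log2 scale, and Cartpt, a neuropeptide precursor, fell by 2.89. The contact-repulsion pair of ephrin-A5 and its receptor also split, with the ligand Efna5 higher (log2 fold change 1.35) and the receptor Epha5 lower (-1.14).

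**Figure D2:**
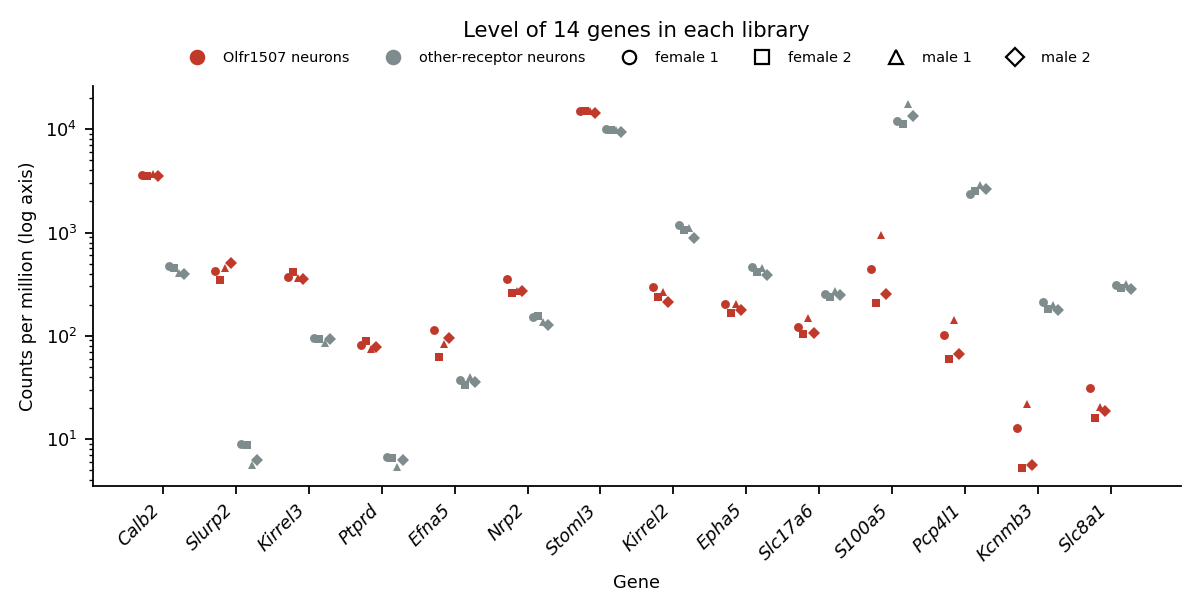
Level of 14 genes (CPM over non-receptor UMIs, log axis) in Olfr1507 neurons (red) and other-receptor neurons (grey), with 1 symbol for each of the 4 libraries. The groups are apart in every library for all 14 genes, from Calb2 at 3504 to 3657 against 398 to 476 CPM to S100a5 at 209 to 947 against 11355 to 17656 CPM.

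Within these means, most Olfr1507 neurons carried the pattern. Among neurons with at least 4000 UMIs, Calb2 had a median of 3762 CPM over 217 Olfr1507 neurons, with 1962 CPM at the 10th and 5424 CPM at the 90th percentile. In 15152 other-receptor neurons the median was 0 and the 90th percentile 1608 CPM. S100a5 had a median of 221 CPM and a 90th percentile of 681 CPM in Olfr1507 neurons, with 1 neuron at 16505 CPM, against a median of 9851 CPM in the others. A neuron that was both above the others' 90th percentile of Calb2 and below their 10th percentile of S100a5 was found in 163 of 217 Olfr1507 neurons (75.1%) and in 984 of 15152 others (6.49%). The pattern was thus common among Olfr1507 neurons but also present in some neurons of other receptors.

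The 15 genes with the largest rise and a mean of at least 20 CPM were led by Slurp2, a secreted protein of the Ly6 family. Slurp2 was at 423, 343, 452 and 502 CPM in Olfr1507 neurons and at 8.98, 8.75, 5.54 and 6.22 CPM in the others. The log2 fold change was 5.93 (SE 0.14, adjusted p = 4.57e-16), and no library came near to overlap. After thinning to 2000 UMIs a neuron, 48.5% of Olfr1507 neurons still had a Slurp2 UMI, against 0.908% of other-receptor neurons and 0.102% of sustentacular-like barcodes. It was spread over many neurons, since 76.5% of Olfr1507 neurons had a UMI before thinning and the top 5 held 9.96% of the UMIs.

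Ptprd, a receptor phosphatase that organizes synapses, was at 80.9, 89.6, 73.9 and 77.5 CPM against 6.67, 6.49, 5.28 and 6.19, a log2 fold change of 3.77 (SE 0.22, adjusted p = 3.38e-10). Lsamp, an adhesion molecule of the IgLON family, rose by 3.51 (SE 0.34), and Ptprz1, a receptor phosphatase and proteoglycan, rose by 2.57 (SE 0.19). Fndc1, a protein with fibronectin domains, was at 96.5, 94.9, 90.7 and 71.9 CPM against 6.72, 6.72, 5.82 and 5.97, a log2 fold change of 3.87. The levels of Ptprd and Fndc1 thus varied little between libraries beside the difference between the groups. The other genes of this set were Rasd1, a small GTPase (3.51), Krt80, a keratin (3.42), Cpn1, the catalytic chain of carboxypeptidase N (2.5), Prph, the neuronal filament peripherin (2.41), Ttyh2 (2.25), Apbb1ip (2.61) and Zfpm2, a transcriptional cofactor (2.35).

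Cyp4b1 and Prdx6 completed the 15, and both are abundant in sustentacular cells: a thinned barcode of that kind had a UMI of them in 39.7% and 97.0% of cases. Cyp4b1 had 73.6% and Prdx6 66.6% of their UMIs in 5 of the 247 Olfr1507 neurons. When barcodes with more than 10 sustentacular UMIs were left out, the log2 fold change of Prdx6 went from 2.22 to 0.07 (adjusted p = 0.710), and Cyp4b1 was too low to be tested. Leaving out barcodes with high doublet scores, which mark likely mixtures of cells, gave 2.78 for Prdx6 and 3.54 for Cyp4b1. The other 13 genes passed in every alternative that tested them.

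Of the 15 genes with the largest fall, 3 encode subunits or carriers that handle ions. Kcnmb3, a regulatory subunit of the calcium-activated BK potassium channel, was at 12.8, 5.27, 21.8 and 5.53 CPM in Olfr1507 neurons and at 211, 182, 199 and 176 CPM in the others (log2 fold change -4.01, SE 0.18, adjusted p = 5.13e-12). Slc8a1, the sodium and calcium exchanger, was at 31.2, 15.8, 20.1 and 18.4 CPM against 310, 289, 316 and 286 (log2 fold change -3.72, SE 0.12, adjusted p = 3.29e-14). Both were low in every Olfr1507 library, and neither group overlapped the other. Kcng1, a modifying subunit of voltage-gated potassium channels, fell by 3.33 on the log2 scale. Cflar, a regulator of caspase-8, fell by 4.02, and Ankrd33b by 3.69. The protocadherins Pcdh9 and Pcdh8, homophilic adhesion molecules, fell by 4.27 and 4.02, with 6 and 14 UMIs in all Olfr1507 neurons together. Avp, the vasopressin precursor, and Mboat1, an acyltransferase, had 3 and 2 UMIs in Olfr1507 neurons, so no fold is given, against 57.6 to 126 and 40.3 to 44.3 CPM in the others. The remaining genes were S100a5 and Pcp4l1, the dorsal markers Nqo1 (-6.11) and Acsm4 (-4.53), and Cd55, an inhibitor of complement (-3.65). The haemoglobin gene Hbb-bs (-3.85), listed here as an erythrocyte marker, completed the set. The source of its RNA in these barcodes was not tested.

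The other-receptor neurons are a mixture, so the levels were also placed among 69 receptors that had at least 10 neurons in each library, Olfr1507 included. All 69 had low Nqo1, a marker of dorsal neurons, at 0 to 29.7 CPM against 266 CPM over all assigned neurons, so the ranks hold among receptors of this kind. Of the 15 genes with the largest rise, 11 were highest in Olfr1507 neurons of all 69, and 14 were within the top 3. The 15 were picked by their rise over a pool that holds the other ranked receptors, so high ranks follow in part from that choice. The same holds for the 15 with the largest fall. It also holds for the list members ranked below, which were named largely for the size of their change. The 15 risen genes include Cyp4b1 and Prdx6, which rest on few neurons, as given above. For Slurp2 the Olfr1507 neurons held 429 CPM, the next receptor, Olfr224, held 78.3 CPM and the median receptor 5.55 CPM. Of the 15 genes with the largest fall, only 3 were lowest in Olfr1507 neurons and 6 were within the lowest 3. S100a5, Kcnmb3 and Slc8a1 were lowest, with receptor medians of 12901, 198 and 294 CPM. For Avp, Mboat1, Nqo1, Acsm4, Hbb-bs and Cd55 the median receptor was itself at 2.5 to 18.4 CPM, so a low level of these genes was shared with many of these receptors.

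The receptors most like Olfr1507 over 62 genes of the guidance, activity and zone lists, by Euclidean distance in log2 CPM, were Olfr195 (7.84), Olfr1178 (8.20), Olfr224 (9.12), Olfr1110 (9.86) and Olfr1213 (9.87). Olfr195, on chromosome 16, had Calb2 at 1975, Kirrel3 at 326, Kirrel2 at 190, S100a5 at 504 and Pcp4l1 at 107 CPM. The Olfr1507 neurons pooled over libraries had 3585, 375, 254, 470 and 93.7 CPM of the same genes. Calb2, S100a5, Pcp4l1 and Kirrel3 are among the genes of the lists by which Olfr195 was chosen, so nearness in them restates that choice. Slurp2 was at 429 CPM in Olfr1507 and 62.8 CPM in Olfr195 neurons. None of the 5 lies in the gene cluster of Olfr1507. Olfr1508 and Olfr1509 came 40th and 42nd of the 68 receptors other than Olfr1507, with distances of 13.9 and 14.1.

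**Figure D3:**
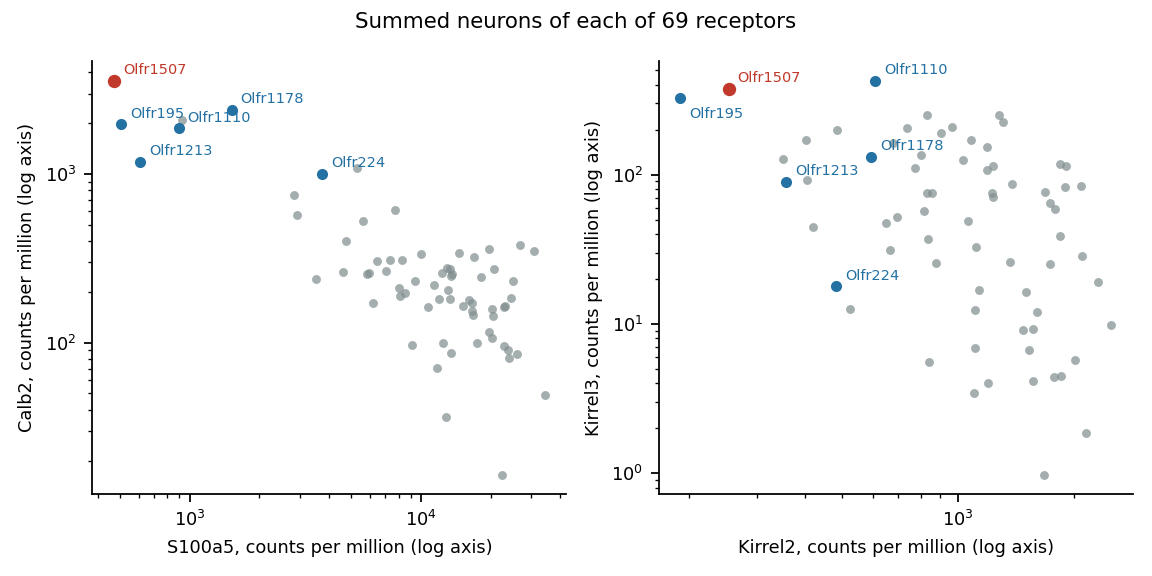
CPM of Calb2 against S100a5 (left) and of Kirrel3 against Kirrel2 (right), log axes, each point being the summed neurons of 1 of 69 receptors. Olfr1507 (red) has the highest Calb2 at 3585 CPM and the lowest S100a5 at 470 CPM, and the 5 receptors most like it (blue) lie at 1000 to 2406 CPM of Calb2 and 504 to 3742 CPM of S100a5. These 5 were chosen over gene lists that include Calb2 and S100a5.

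Guidance molecules steer the axon in the bulb, along its anterior to posterior axis by Nrp1 and Plxna1 and along its dorsal to ventral axis by Nrp2, Robo2 and their ligands. Of 38 tested genes of this list, 13 rose and 14 fell in Olfr1507 neurons, with a median log2 fold change of 0.07. Nrp2, a receptor for class 3 semaphorins, was at 353, 260, 270 and 269 CPM against 152, 156, 136 and 127 (log2 fold change 1.07, SE 0.07, adjusted p = 2.86e-09). Female 1 was the highest Olfr1507 library, and the groups did not overlap. Nrp1 was at 27.0, 22.8, 18.5 and 31.4 CPM against 48.5, 45, 48.5 and 44 (log2 fold change -0.85, SE 0.17, adjusted p = 0.00108), and its coreceptor Plxna1 fell by 1.55. Both were thus lower in each library. Robo2, a receptor for Slit proteins, was at 18.4, 1.76, 6.72 and 11.1 CPM against 92.5 to 104 CPM, and fell by 3.25. Its ligand Slit1 was at 133, 65.0, 89.0 and 99.6 CPM against 40.2 to 43.5 CPM, rose by 1.29 and was highest in Olfr1507 of the 69 receptors. Nphs1, an adhesion molecule that binds Kirrel proteins, had 2 UMIs in all Olfr1507 neurons, against 13.8 to 23.5 CPM in the others.

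Among synapse genes more members fell than rose. Of 20 tested synaptic organizers, 8 fell and 4 rose (median -0.18). Nlgn3, a neuroligin, was at 11.3, 19.3, 11.8 and 11.1 CPM against 37.5 to 40.1 CPM (log2 fold change -1.49, SE 0.21, adjusted p = 3.38e-05) and Apba1, an adaptor of the presynaptic membrane, fell by 1.44. Both were lowest in Olfr1507 of the 69 receptors. Tenm4, a teneurin, rose by 1.24, beside Ptprd. Among neurons without a Gap43 UMI 5 organizers fell and 2 rose. Fewer genes of all kinds passed there, 1301 of 9993 against 1962 of 10094 in all neurons.

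Of 27 genes for glutamate release, 9 fell and 2 rose (median -0.19). Slc17a6, the vesicular glutamate transporter of olfactory neurons, was at 122, 104, 148 and 107 CPM against 252, 239, 269 and 248 (log2 fold change -1.01, SE 0.08, adjusted p = 1.40e-08). It was lowest in Olfr1507 of the 69 receptors, as was the complexin Cplx2, which fell by 1.37. The 2 genes that rose both encode pore-forming subunits of presynaptic calcium channels, Cacna1b (1.30, highest of the 69 receptors) and Cacna1a (0.99). Cacna1a did not pass among neurons without a Gap43 UMI (log2 fold change 0.57, adjusted p = 0.299).

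Of 27 genes of the machinery that turns odorant binding into current, 12 rose and 8 fell (median 0.07, against 0.01 for all genes). Stoml3, a stomatin of the cilia, was at 15100, 14992, 15104 and 14511 CPM against 10039, 9783, 9835 and 9360 (log2 fold change 0.67, SE 0.03, adjusted p = 1.71e-11). Cnga2, the main subunit of the cyclic-nucleotide-gated channel, rose by 0.48, its partner Cnga4 by 0.56, the G protein subunit Gnal by 0.34 and the adenylyl cyclase Adcy3 by 0.27. All Olfr1507 values of these genes lay above all other-receptor values. Pde4a, a phosphodiesterase of the cell body, rose by 0.69, and Slc12a2, the carrier that loads the cell with chloride, rose by 0.67 and was highest of the 69 receptors. Arrb2, the arrestin that ends receptor signalling, fell by 0.64. Of 8 markers of mature neurons, 7 rose (median 0.41), and the remaining gene was Omp, on which the rule selected. Of 32 genes of the cilium, 6 rose and 3 fell (median 0.03).

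Of 19 potassium, sodium and calcium channel genes, 8 fell and 4 rose (median -0.05). Besides Kcnmb3, the pore-forming BK subunit Kcnma1 was lower, at 65.3, 66.8, 73.9 and 71.9 CPM against 172, 170, 185 and 178 (log2 fold change -1.29, SE 0.09, adjusted p = 4.53e-09). Both parts of the BK channel were lowest in Olfr1507 of the 69 receptors. Kcna1, a voltage-gated potassium channel, had 1 UMI in all Olfr1507 neurons, against 8.32 to 11.3 CPM in the others.

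Immediate early genes, which cells induce within minutes of activity or stress, were higher in Olfr1507 neurons, but so was RNA of sustentacular cells. Of 22 genes tested, 16 rose and 1 fell (median 0.93). Without barcodes of more than 10 sustentacular UMIs, 10 of 20 rose and 3 fell (median 0.45), and among barcodes with 7000 to 13000 UMIs 9 of 20 rose and 3 fell (median 0.59). Fos, part of the AP-1 factor, was at 1563, 1974, 878 and 1317 CPM against 750, 770, 673 and 815 (log2 fold change 0.94, SE 0.10, adjusted p = 1.48e-06), and without these barcodes its log2 fold change was 0.68. Male 1 was the lowest Olfr1507 library of Fos and also had the lowest sustentacular marker sum, and a link between them was not tested. Egr4, a zinc finger factor, was at 51.1, 40.4, 55.4 and 51.6 CPM against 18.6 to 22.9 CPM, with 1.32 in all neurons and 1.34 without these barcodes. Ier3 went from 1.93 to 0.80 (adjusted p = 0.156), and Zfp36 from 1.64 to 0.62. Egr1 was at 474, 689, 203 and 481 CPM against 369, 390, 345 and 452 with no call (0.26, adjusted p = 0.251), and fell by 0.52 without these barcodes (adjusted p = 1.6e-04). Without barcodes of high doublet scores the values were larger, with Ier3 at 2.91, Zfp36 at 2.46, Fos at 1.05, Egr4 at 1.37 and Egr1 at 0.30.

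**Figure D4:**
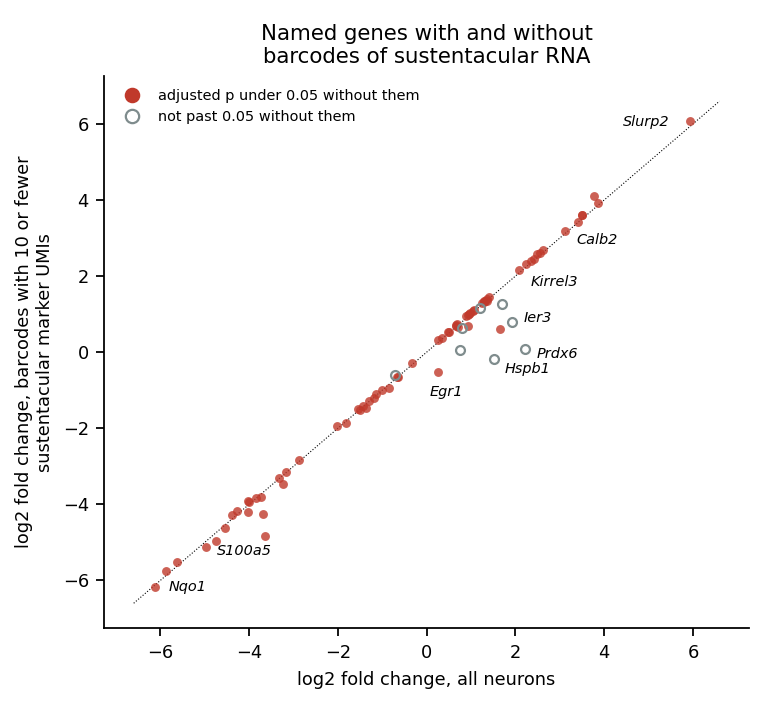
Log2 fold change of the named genes in all neurons (x) and in barcodes with 10 or fewer sustentacular marker UMIs (y), with the line of equality. Most genes lie on the line, while Prdx6 (2.22 and 0.07), Ier3 (1.93 and 0.80), Hspb1 (1.51 and -0.19) and Egr1 (0.26 and -0.52) lie below it.

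Heat shock genes, the chaperones of protein damage, had 8 of 14 higher and none lower (median 0.38), and 5 of 14 higher (median 0.12) without the sustentacular barcodes. Hspb1 was at 140, 506, 58.8 and 148 CPM against 56.6 to 80.4 CPM, with male 1 inside the range of the others. Its log2 fold change went from 1.51 to -0.19 without these barcodes, that of Hspa1a from 0.76 to 0.07, and that of Bag3 from 0.95 to 1.02. Without barcodes of high doublet scores, Hspb1 was at 2.51, Hspa1a at 1.51 and Bag3 at 1.19. The unfolded protein response is part of the feedback by which a translated receptor fixes its own choice. It had 8 of 25 genes higher and 1 lower (median 0.18), and 7 and 0 without the sustentacular barcodes (median 0.04). Sel1l, an adaptor of protein removal from the endoplasmic reticulum, was at 183, 146, 193 and 181 CPM against 97.1 to 102 CPM, and rose by 0.89 (SE 0.09, adjusted p = 3.37e-07). Nfil3 rose by 0.93 and Edem1 by 1.41. Eif2ak3, the kinase PERK, fell by 0.71 (adjusted p = 0.0283), a call that held in only 8 of 15 alternatives. It was lost without female 1, without female 2 or without male 1, with DESeq2, among 7000 to 13000 UMIs, with 10 or fewer sustentacular UMIs, and without a Gap43 UMI, where the log2 fold change was -0.24 (adjusted p = 0.668).

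**Figure D5:**
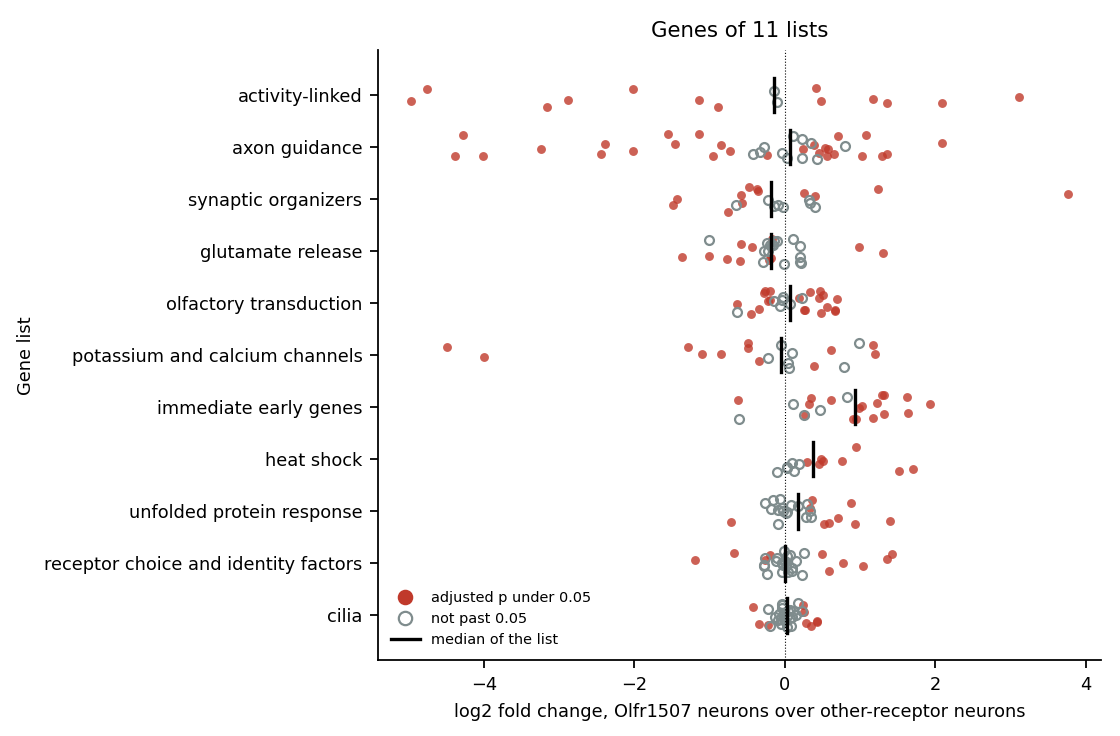
Log2 fold change of each tested gene of 11 lists, Olfr1507 neurons over other-receptor neurons, with filled points past an adjusted p of 0.05 and a bar at the list's median. Activity-linked genes spread from -4.97 to 3.11 around a median of -0.15, while immediate early genes have a median of 0.93.

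Neurons differ by the zone of the epithelium in which they lie, from dorsal to ventral, and of 13 tested zone genes 3 rose and 5 fell. Their median was 0.15 but below 0 in 10 of 15 alternatives, with a range of -0.44 to 0.16, and DESeq2 gave -0.33 for the same number of genes. Nqo1, the oxidoreductase that marks dorsal neurons, was at 2.84, 3.51, 3.36 and 5.53 CPM against 259, 238, 234 and 351, and Acsm4, a dorsal acyl-CoA synthetase, at 1.68 to 5.53 CPM against 69.8 to 104 CPM. Dorsal transcripts were thus near 0 in all 4 Olfr1507 libraries. Nfia, a factor with higher levels toward the ventral zones, was at 72.3, 61.5, 62.1 and 75.6 CPM against 31.6, 30.7, 25 and 23.4 (log2 fold change 1.35, SE 0.14, adjusted p = 8.00e-07), and Nfib rose by 0.77. Ncam2, an adhesion molecule of non-dorsal neurons, was nevertheless slightly lower, at 145, 142, 148 and 120 CPM against 182, 181, 188 and 173 (log2 fold change -0.33, adjusted p = 0.00480). Of 31 factors of receptor choice and identity, 6 rose and 4 fell (median 0.00). Lhx2, which binds receptor enhancers, rose by 0.50, while its partner Ebf1 fell by 0.67 and Emx2 by 1.19, both lowest of the 69 receptors. Msx1, Meis1 and Meis2 also rose, at 20 CPM or less in Olfr1507 neurons of most libraries, and did not pass in every alternative.

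To hold zone closer, Olfr1507 neurons were set against neurons of the other receptors with low Nqo1 (358 receptors when Olfr1507 is counted). Of 10111 genes, 1879 (18.6%) passed, 1064 higher (10.5%) and 815 lower (8.06%). The activity-linked list again had 6 genes higher and 7 lower of 15. Calb2 had a log2 fold change of 3.23, S100a5 -4.97, Kirrel2 -2.12, Kirrel3 2.22 and Slurp2 5.61, so the values of these genes hardly moved with this comparator. Cartpt moved from -2.89 to -1.84, Nrp2 from 1.07 to 0.79 and Robo2 from -3.25 to -2.85. The log2 fold change of Ncam2 was -0.55 (adjusted p = 3.6e-05). The 2 comparisons share the Olfr1507 sums and many of the other neurons.

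Neurons of the neighbouring receptors gave a further comparison, with the gene cluster in common. The 6 receptors within 200 kb had 195 neurons, of which Olfr1508 had 79 and Olfr1509 had 73. Of 10078 genes, 851 (8.44%) passed, 481 higher (4.77%) and 370 lower (3.67%). The activity-linked genes differed as widely as before, with 5 higher and 7 lower of 15. Calb2 had a log2 fold change of 4.71 against the neighbours, Kirrel3 3.48, S100a5 -5.75, Pcp4l1 -5.74, Kirrel2 -2.56 and Kcnmb3 -5.18. In pooled CPM, S100a5 was at 22934 in Olfr1508 and 20238 in Olfr1509 neurons, against 470 in Olfr1507 neurons. Olfr1507 and the receptor of nearly the same coding sequence thus lay near opposite ends of the S100a5 range. Some genes that passed against the pooled other-receptor neurons did not pass here: Robo2 (-1.20, adjusted p = 0.19), Plxna1 (-0.42, adjusted p = 0.39) and Cd55 (-0.66, adjusted p = 0.57). Of 32 cilium genes, 1 passed.

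Of 117 non-receptor genes within 1 Mb of Olfr1507, 8 reached the level needed for the test against other-receptor neurons. None of the 8 passed in edgeR or DESeq2, and 2 had an unadjusted p under 0.05 in edgeR (median log2 fold change 0.03). The nearest to a call was Mettl3, an RNA methyltransferase, with -0.49 (SE 0.19, adjusted p = 0.0802).

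Gap43, a growth protein of immature axons, was seen in more of the Olfr1507 neurons. A Gap43 UMI was present in 38.0%, 39.7%, 43.5% and 41.1% of them, against 17.7%, 16.9%, 15.9% and 16.7% of the other-receptor neurons, with no overlap. Since Olfr1507 neurons were deeper, the thinned shares are 18.4% against 9.0%, and 5.60% in sustentacular-like barcodes. Gap43 had a log2 fold change of 0.71 (SE 0.13, adjusted p = 5.74e-04) and passed in all alternatives but DESeq2 of those that tested it. No other listed marker of immature neurons was called higher in this comparison. Tubb3, a neuronal tubulin, was at 142, 79.1, 176 and 179 CPM against 579, 525, 445 and 548 and fell by 1.81, the lowest of the 69 receptors. Of the 5 immature markers, 1 rose and 1 fell.

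Calb2, Slurp2 and Kirrel3 were at like levels in Olfr1507 neurons with and without Gap43. Calb2 was at 3620 CPM ± 135 (SD, n = 4) in 147 Olfr1507 neurons without a Gap43 UMI and at 3438 ± 186 in 100 neurons with one. In other-receptor neurons the same split gave 193 ± 22.1 and 1211 ± 56.7 CPM. Slurp2 was at 437 ± 59.7 and 409 ± 83.0 CPM in Olfr1507 neurons, and Kirrel3 at 384 ± 36.6 and 356 ± 68.0 CPM. Stmn2, a further marker of immature neurons, did differ, at 262 ± 39.2 CPM without and 713 ± 115 CPM with Gap43. Gng8, also such a marker, was at 9.26 ± 4.99 and 86.7 ± 77.6 CPM, but at 0 in the female 2 neurons with Gap43. In the comparison over neurons without a Gap43 UMI the log2 fold change of Calb2 was 4.29.

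Immature neurons that had chosen Olfr1507 were few. Among barcodes with at least 5 Gap43 UMIs, fewer than 5 Omp UMIs and an assigned receptor, 12 of 902 (1.33%) had Olfr1507, a mean share of 1.34% ± 0.40 (SD, n = 4) against 1.38% ± 0.145 in mature neurons. The two-sided exact sign-flip permutation p was 1.0, where 4 pairs cannot go below 0.125. Their median Olfr1507 count was 32.5 UMIs (12 to 130). Calb2 was present in 9 of the 12, against 95.8% of immature neurons of other receptors. Its pooled level was nevertheless not lower, at 1757 CPM in the 12 and 1666 CPM in those of other receptors. Slurp2, Kirrel3 and Cpn1 had no UMI in any of the 12, at a median depth of 9753 UMIs. Ptprd had a UMI in 3 of the 12, Fndc1 in 2 and Rasd1 in 2. The shares in immature neurons of other receptors were 26.6%, 1.24% and 7.64%. In immature neurons of other receptors Kirrel3 had a UMI in 14.9%, and 12 neurons are too few to tell such a share from 0.

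Within Olfr1507 neurons, males and females differed in 1 gene of 10090 tested in edgeR (0.00991%), Eif2s3y of the Y chromosome (log2 fold change 8.73, adjusted p = 0.00102), and 512 genes had an unadjusted p under 0.05. The count was unstable: it was 2 with DESeq2, which added Atf3, and 145, 57, 76 and 73 when female 1, female 2, male 1 or male 2 was left out, which leaves 1 sex with a lone library assumed to vary like the others. The leading genes were near each other in the sexes, with male over female log2 fold changes of -0.01 for Calb2, 0.31 for Slurp2 (adjusted p = 0.940) and -0.14 for Kirrel3. In edgeR no gene passed the test of whether the difference between Olfr1507 and other-receptor neurons differs between the sexes (smallest adjusted p = 0.131, 448 genes with an unadjusted p under 0.05), and DESeq2 passed 1, Fos (-0.70, adjusted p = 0.0229).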

How the data were processed

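The authors deposited raw UMI counts per gene and barcode for each library. Cell Ranger 6.0.2 is named per the file headers, and Cell Ranger 5.0.1 with mm10 per the submitters' processing notes, and the 2 versions were not reconciled. The rule by which barcodes were called as cells, the annotation and the treatment of reads that match several genes are not given in the sources used here. Positions and coding sequences were taken from the GENCODE M21 annotation (GRCm38), in which 22285 of the 22399 listed genes were found. The members and gene lists were chosen with earlier results of these data known.

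The library, not the cell, was the replicate. Per library and group, counts were added up after 1505 receptor genes of all families were left out, and tested with edgeR 4.0.16 (quasi-likelihood, TMM, R 4.3.3) over 8 sums with the library as a block, for genes with a mean of at least 5 CPM, with Benjamini-Hochberg adjustment at 0.05. The sexes were compared over 4 sums without a block. CPM were computed here, over non-receptor UMIs in these sums and in the receptor ranks, and over all UMIs for marker sums, Olfr1507 itself, single neurons and the Gap43 split. Named genes were the 15 with the largest change each way among those past the threshold, changed alike in 4 libraries and with a mean of at least 20 CPM, and up to 4 members of each list by size or as defining genes. Receptor genes, mitochondrial genes, Omp, Cyp2g1 and sex-linked genes were left out of them, and further list members were named after their values were seen. Doublets were scored against simulated doublets and kept, except in an alternative that removed the highest scores at 0.8% per 1000 barcodes. Library pairs differed by a chi-square of 19.8 to 35.6 per gene, so none was a copy. Alternatives were DESeq2 1.42.0, other filters and scaling, stricter receptor rules, depth limits, leaving out each library, and 3 limits on barcodes chosen after seeing the data (7000 to 13000 UMIs, at most 10 sustentacular UMIs, no Gap43 UMI). On simulated data with 200 of 10094 genes changed, the first comparison recovered 48% of 1.5-fold and 78% of 2-fold changes, with 3.08% false calls. The simulation gave all genes the same dispersion (0.00638) and all libraries the same profile, and changed far fewer genes than were called. Its rates therefore do not describe the calls in the data, least of all for genes that rest on few neurons.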

Additional observations from a re-analysis of the deposited data

Results flagged for a closer look

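In 6 of 88 groups of 4 library values of Olfr1507 neurons, 1 library lay far from the other 3 by Dixon's criterion, where chance gives about 1 in 20 groups. The genes highest in female 1 were Cd55 at 34.0 CPM (others 5.27 to 8.40), Nrp2 at 353 CPM (others 260 to 270) and Cacna1a at 34.0 CPM (others 24.6 to 25.8). Kcna1 was also highest in female 1, at 1.42 CPM from 1 UMI, and at 0 in the other libraries. Gnal was highest in male 1 at 4497 CPM (others 3793 to 3861), and Nlgn3 in female 2 at 19.3 CPM (others 11.1 to 11.8). For each of these genes, every Olfr1507 library lay on the same side of its own other-receptor sum.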

How the results depend on the processing

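The count against other-receptor neurons stayed within 1.5 times of 1962 in all alternatives but 1: among neurons without a Gap43 UMI it was 1301 (722 higher, 579 lower), and 1227 against the low-Nqo1 receptors. Leaving out 1 library gave 1370 to 1726 and 1286 to 1599 calls. Without a filter on low counts the split was 1064 higher and 1116 lower. With 10 or fewer sustentacular UMIs it was 1802 calls, of which 1609 were shared in the same direction (82.0% of the main calls and 89.3% of the alternative's). Of 83 called genes named here or listed beside them, 69 passed in every alternative that tested them. The log2 fold change turned among 7000 to 13000 UMIs for Prdx6 (-0.25), Ier3 (-0.011), Egr1 (-0.66), Hspb1 (-0.60) and Hspa1a (-0.57), and with 10 or fewer sustentacular UMIs for Egr1 (-0.52) and Hspb1 (-0.19). The immature minus mature share lay between -0.235 and 0.204 percentage points with 1 library left out, and turned only without female 1. Within the sexes, 64 genes passed with the replicate number as a block, 2 with DESeq2, 130 without the filter and 57 to 145 with a library left out, and the interaction had 1 with DESeq2. Small list medians changed sign in some of 15 alternatives: axon guidance in 4 (-0.12 to 0.17), cilia in 3 (-0.02 to 0.09), channels in 2 (-0.42 to 0.01) and identity factors in 8 (-0.09 to 0.06). The causes of these moves were not tested. Same-numbered libraries share only a number, and their deviations from the sex means correlated by 0.116. Depth limits low genes: Kcna1, Nphs1, Mboat1 and Avp had 1 to 3 UMIs in Olfr1507 neurons.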
